A study of Mus musculus with 2 samples.

Results

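The matrix metalloproteinases (Mmp), the ADAM and ADAMTS proteases with the related Adamdec1 and ADAMTS-like proteins, and the tissue inhibitors of metalloproteinases (Timp) were examined in mesenchymal cells of the mouse large intestine. Genes were chosen by symbol alone. Of 32285 genes in the count tables, 84 carried a symbol of these families, and the 57 with at least 50 UMIs (unique molecular identifiers, 1 per captured transcript) over both tables are described here. In the mesenchymal cells themselves 56 of the 57 reached 50 UMIs. The exception was Mmp9, gelatinase B, with 16 UMIs in one library and 23 in the other.

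These genes encode most of the zinc proteases that cut extracellular matrix and cell-surface proteins. MMPs cleave collagens, gelatin, laminin and other matrix proteins, and are secreted or membrane-bound proenzymes that have to be activated. ADAMs are membrane proteases that release the outer parts of growth factors, cytokines and receptors, ADAMTS proteases are secreted and cut proteoglycans, procollagens and other matrix proteins, and TIMPs bind and block the active sites of many of these enzymes. In the gut, fibroblasts are a main source of matrix and of the enzymes that remodel it.

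The data are 2 droplet single-cell RNA libraries of large intestine cells, made with the 10x Genomics 3′ chemistry, 1 library per group. Both came from cells sorted as negative for CD45, EpCAM and CD31 and positive for gp38 (podoplanin), which removes leukocytes, epithelium and endothelium and keeps mesenchyme. By their labels, the ff cells are C57BL/6 and the GF cells Balb/c. The series' design text speaks of adult mice and of germ-free mice, but gives the germ-free state of the libraries only through the name GF, and ff is not spelled out anywhere. Strain, housing state and library therefore coincide and cannot be told apart, and how many animals went into each is not stated. With 1 library per group no test between groups was possible: differences below have no replicate check, and every interval covers counting error only.

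Mesenchymal cells were picked cell by cell from their collagen, decorin and Pdgfra transcripts and the lack of transcripts of other lineages. This kept 11921 ff cells (98.0% of those retained, median 8891 UMIs) and 12827 GF cells (89.7%, median 6657 UMIs), with 107653844 and 88950965 UMIs. Over all retained cells, picked or not, the sort markers were at 267 and 317 CPM (counts per 1000000 UMIs) of Pdpn for ff and GF, 5.25 and 34.1 CPM of Ptprc, 2.62 and 0.753 CPM of Epcam, and 4.09 and 6.58 CPM of Pecam1. Ptprc, the gene of CD45, was found in 1.25% of retained ff cells and 8.02% of retained GF cells, and lymphocyte-like cells passed the sort: 67 ff and 645 GF cells like B or plasma cells, and 39 ff and 585 GF cells like T or innate lymphoid cells. In the picked cells, where the low values follow in part from the picking itself, the summed markers of each other cell type came to between 0.845 and 33.5 CPM, and haemoglobin genes summed to 171 and 108 CPM. The libraries shared 55 cell barcodes, 42 of them among the mesenchymal cells.

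Clustering of both libraries together, without the protease and inhibitor genes, gave 17 mesenchymal clusters of 50 cells or more per library, called here by a leading gene. They formed 13 populations. Those named from marker lists were Foxl1-high-like cells (Wif1-led and Nrg1-led clusters), lamina propria fibroblast-like (Cd36-led), reticular or lymphoid-organising fibroblast-like (Cxcl13-led), adventitial or submucosal fibroblast-like (Pi16-, Ackr2-, Angptl1- and Ackr4-led), interferon-activated fibroblast-like (Cxcl9-led) and smooth muscle-like cells (Actg2-led). The other populations stayed unnamed and are called Col6a5-, Cx3cr1-, Cck-, Stmn2-, Ntrk3-, Myoc- and Cfd-led, and haemoglobin genes were among the leading genes of the Cx3cr1-led cluster. The Foxl1-high-like share was 17.7% of mesenchymal cells in ff and 7.74% in GF, and the Cxcl13-led share 7.04% and 19.2%.

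Counting a gene as higher in a population when its level was at least 2-fold that of the other mesenchymal cells in both libraries, after 1 CPM was added, 23 of the 56 genes were higher in at least 1 population, against 18.9% of the 14858 genes measured. Between the libraries, with a bound of 1.5-fold, 5 of 56 were higher in GF and 5 lower, against 4.89% and 5.21% of all genes. Log2 ratios, GF over ff, had a median of 0.10 over the 56 genes and 0.02 over all genes. The same cluster had the highest level in both libraries for 27 of the 56 genes (48.2%), against 38.3% of all genes, and for 19 of the 32 with at least 1000 UMIs (59.4%), against 41.4%.

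**Figure D1:**
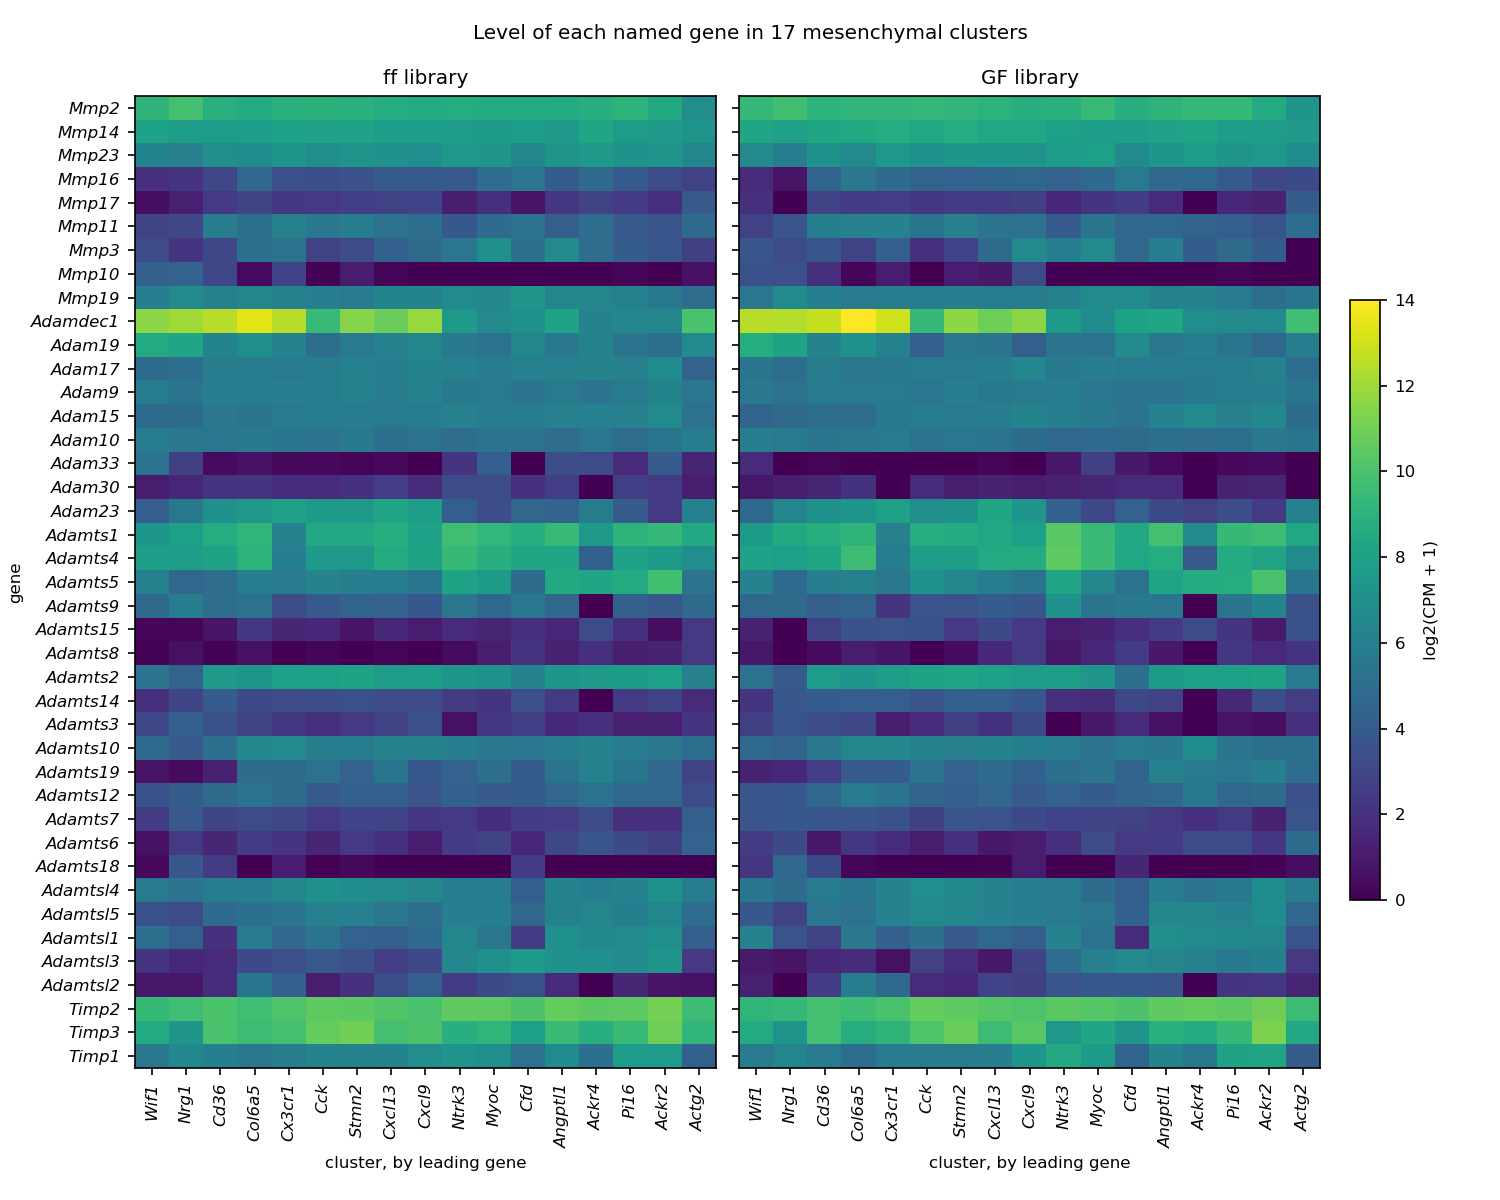
Levels of the 41 genes named by rule (rows, ordered by role) in 17 mesenchymal clusters (columns, by leading gene) of the ff library (left) and the GF library (right). Colour gives log2(CPM + 1), and Adamdec1 is brightest in the Col6a5-led cluster in both panels (11132 CPM in ff and 16937 in GF), while the highest Adam33 level is in the Wif1-led cluster in ff (39.0 CPM) and in the Myoc-led cluster in GF (5.33 CPM).

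Mmp2, gelatinase A, was the MMP with the most UMIs. It stood at 483 CPM in ff (95% Poisson interval 479 to 488) and 548 in GF (543 to 553). The 3′ chemistry gives 1 UMI per captured molecule whatever the transcript length, so CPM values are not divided by length. Every cluster held Mmp2 transcripts. The Nrg1-led Foxl1-high-like cluster had the highest level, 936 CPM in ff and 851 in GF, and the smooth muscle-like cluster the lowest, 122 and 154 CPM. Smooth muscle-like cells were the population in which Mmp2 was lower than in the other cells by the 2-fold bound, with log2 ratios of -2.00 and -1.85.

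Mmp14, the membrane-type MMP that activates pro-Mmp2 at the cell surface, had a narrower range over clusters than Mmp2. Its level was 235 CPM in ff and 292 in GF, and over the 17 clusters it ran from 153 to 297 CPM in ff and from 190 to 407 CPM in GF. It met the 2-fold bound in no population. GF was above ff in 16 of 17 clusters for Mmp14 and in 16 of 17 for Mmp2, by small amounts: the pool log2 ratios were 0.31 and 0.18, both under the 1.5-fold bound. Across clusters the levels of Mmp2 and Mmp14 had a Spearman correlation of 0.53 in ff and 0.29 in GF over 17 clusters that share a library.

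Among the other membrane-bound MMPs, Mmp23 was at 125 and 153 CPM in ff and GF and also reached every cluster. Mmp17, a lipid-anchored form, was a smooth muscle-like gene here: 14.6 CPM in ff and 16.7 in GF in those cells, against 3.56 and 3.53 CPM in the rest. This difference had nearly the same size in both libraries, with log2 ratios of 1.77 and 1.96. Mmp16 had its highest levels in the Cfd-led cluster, 43.8 and 51.6 CPM, and its lowest in the Foxl1-high-like cells, 2.88 and 1.85 CPM. Its level over all mesenchymal cells was 12.2 CPM in ff and 21.5 in GF, a log2 ratio of 0.77 (interval without added count 0.71 to 0.92). Mmp15 and Mmp25, 2 further membrane-type members, had 30 and 81 UMIs in ff and 58 and 17 in GF, too few to describe by cluster.

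The stromelysins Mmp3 and Mmp10, which cut non-collagen matrix proteins and can activate other MMPs, lie on chromosome 9 with the collagenase Mmp13 and with Mmp27. On GRCm38 the span from the start of Mmp13 to the end of Mmp27 is chr9:7272514-7581885, and Mmp3 and Mmp10 lie between them on the same strand. The 250 bases before each RefSeq start (GRCm38.p6, plus strand, 5′ to 3′) are shown because Mmp13, Mmp3 and Mmp10 had different cell patterns. Mmp27 had too few UMIs to describe by cluster. Capitals mark the AP-1 motif TGANTCA and the motif TATAAA, both searched on both strands, and they do not overlap each other.
Mmp13 chr9:7272264-7272513: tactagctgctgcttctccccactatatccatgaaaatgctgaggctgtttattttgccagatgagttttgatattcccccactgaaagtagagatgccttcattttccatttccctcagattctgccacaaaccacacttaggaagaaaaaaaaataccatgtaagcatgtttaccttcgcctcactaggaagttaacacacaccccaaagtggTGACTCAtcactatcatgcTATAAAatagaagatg
Mmp3 chr9:7445572-7445821: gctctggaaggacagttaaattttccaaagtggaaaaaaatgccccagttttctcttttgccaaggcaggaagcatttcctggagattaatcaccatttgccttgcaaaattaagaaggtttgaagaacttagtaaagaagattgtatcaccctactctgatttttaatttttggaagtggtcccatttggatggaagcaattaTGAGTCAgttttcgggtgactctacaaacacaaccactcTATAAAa
Mmp10 chr9:7502092-7502341: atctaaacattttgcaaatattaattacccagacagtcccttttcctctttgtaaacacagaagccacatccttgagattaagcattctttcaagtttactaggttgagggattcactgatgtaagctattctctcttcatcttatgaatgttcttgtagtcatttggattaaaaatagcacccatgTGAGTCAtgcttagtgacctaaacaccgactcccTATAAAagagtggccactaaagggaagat
Mmp27 chr9:7571146-7571395: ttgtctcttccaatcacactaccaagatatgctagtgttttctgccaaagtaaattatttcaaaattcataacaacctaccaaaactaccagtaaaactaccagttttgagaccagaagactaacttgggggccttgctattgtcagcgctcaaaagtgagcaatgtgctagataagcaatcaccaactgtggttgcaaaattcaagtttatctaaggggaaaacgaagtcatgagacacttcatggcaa

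Each of the Mmp13, Mmp3 and Mmp10 windows held 1 AP-1 match, with its first base 35, 46 and 63 bases before the start, and 1 TATAAA match, 16, 7 and 29 bases before it. The Mmp27 window held neither set of letters. AP-1 letters occurred in 6.75% and TATAAA in 12.4% of 32851 RefSeq windows of that length. Of the 35 members with an entry, 4 held the AP-1 letters: Adam19, Mmp10, Mmp13 and Mmp3. A match is a string of letters and not a measured binding site.

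The cell patterns of Mmp10, Mmp13 and Mmp3 differed. Mmp10, stromelysin-2, was a Foxl1-high-like gene: 18.9 CPM in ff and 10.5 in GF in those cells, against 1.21 and 0.627 CPM in the other mesenchymal cells (log2 ratios 3.17 and 2.82). Both Foxl1-high-like clusters carried it, the Wif1-led at 18.4 and 10.7 CPM and the Nrg1-led at 20.3 and 9.55 CPM. Outside them it was found mainly in the Cd36-led cluster (6.76 and 2.86 CPM) and the Cx3cr1-led cluster (6.13 and 1.06 CPM), and the GF Cxcl9-led cluster had 8.54 CPM from 8 UMIs.

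Mmp13, collagenase-3, had most of its mesenchymal UMIs in the Nrg1-led cluster, 1 of the 2 Foxl1-high-like clusters. It had 55 UMIs there in ff (9.55 CPM) and 12 in GF (7.64 CPM), of 77 and 20 UMIs in all mesenchymal cells. The Wif1-led cluster, which is larger, had 3 and 1 UMIs of it. Macrophage, monocyte or dendritic cell-like cells that were not picked as mesenchymal held 62 and 8 UMIs. Mmp13 was described after its values were seen, since it has too few UMIs for the naming rule.

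Mmp3, stromelysin-1, showed another pattern. Its highest level was in the Myoc-led cluster in both libraries, 123 CPM in ff and 95.6 in GF, against 19.7 and 23.4 CPM in the other cells, followed in ff by the Angptl1-led cluster at 95.8 CPM. In GF the Cxcl9-led cluster stood beside the Myoc-led one at 95 CPM from 89 UMIs, where ff had 27.8 CPM from 23 UMIs. The Foxl1-high-like cells, where Mmp10 was high, held 6.85 and 11.3 CPM of Mmp3. In the pool Mmp3 was at 24.6 and 27.7 CPM, a log2 ratio of 0.17 that became -0.29 when the GF populations were weighted by their ff shares and -0.11 when cells were thinned to equal depth.

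Mmp11, stromelysin-3, had 66.3 and 72.8 CPM in the Cx3cr1-led and 58.3 and 66.2 CPM in the Cd36-led cluster, and 6.44 and 7.15 CPM in Foxl1-high-like cells. Mmp19, a secreted MMP of basement membrane proteins, was present in every cluster, at 72.9 CPM in ff and 61.3 in GF, with the Cfd-led cluster highest at 158 and 107 CPM. Mmp27 and Mmp28 had 48 and 52 UMIs in ff and 77 and 18 UMIs in GF. Mmp11 and Mmp19 overlap genes on the opposite strand, Chchd10 and Tmem198b among them, and the sources used here do not say whether counting used strand.

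**Figure D2:**
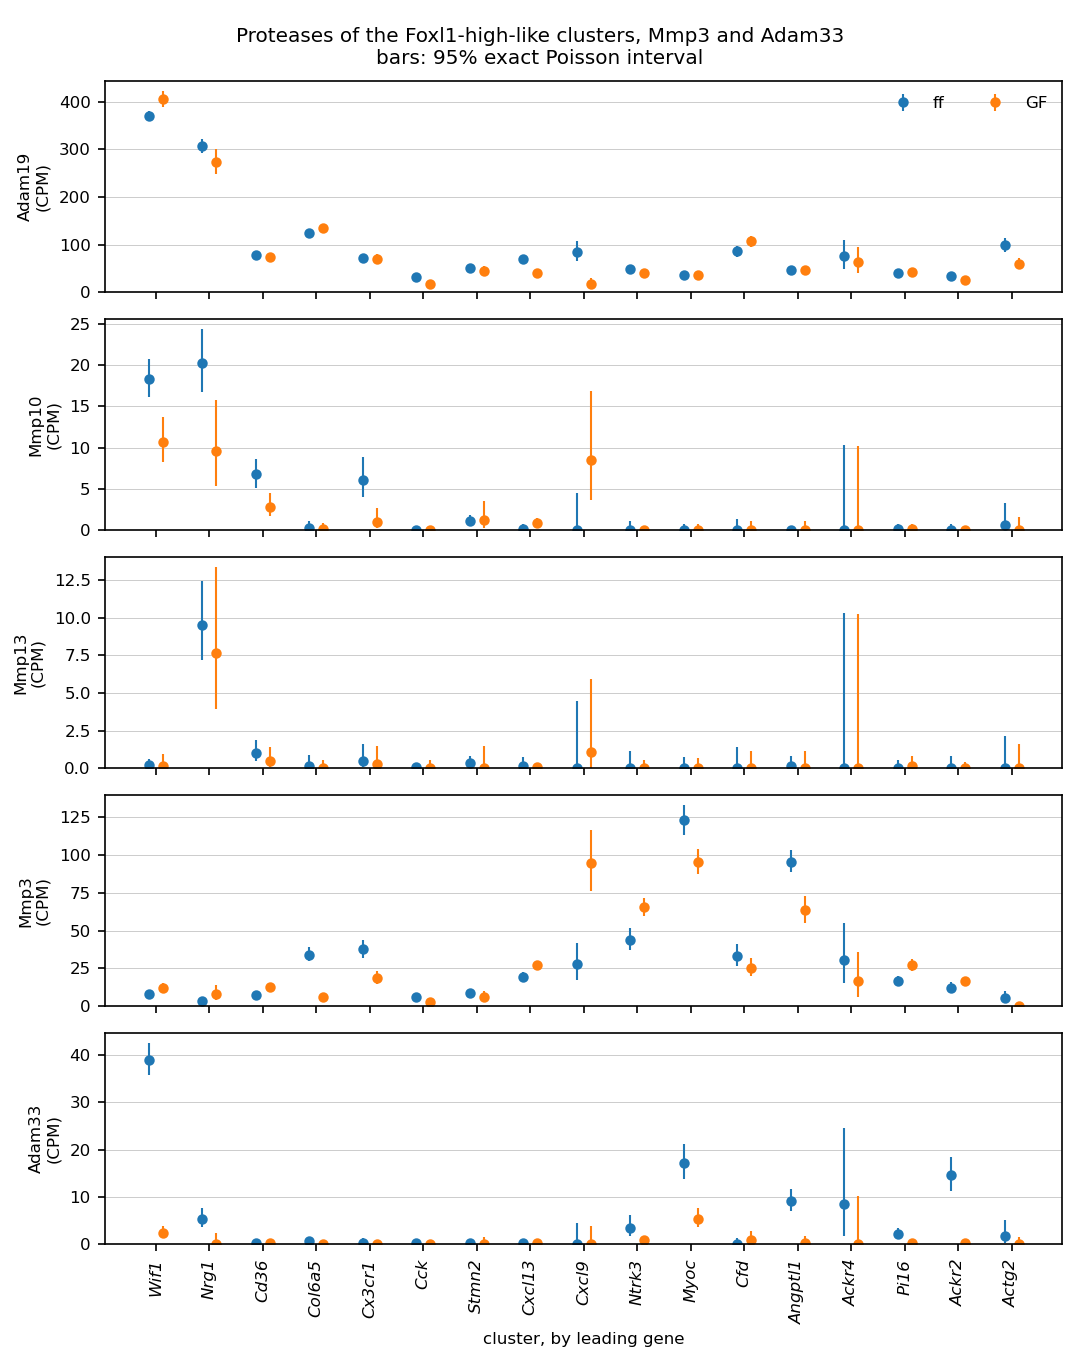
Levels (CPM, vertical axes from 0) of Adam19, Mmp10, Mmp13, Mmp3 and Adam33 in 17 mesenchymal clusters, ff in blue and GF in orange, with 95% exact Poisson intervals as bars. Adam19 and Mmp10 are highest in the Wif1- and Nrg1-led clusters and Mmp13 in the Nrg1-led cluster, Mmp3 is highest in the Myoc-led cluster, and the Adam33 points of GF lie near 0 where those of ff reach 39.0 CPM.

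Adamdec1, a secreted protein of the ADAM family known as a marker of gut lamina propria fibroblasts, was the most abundant member. It reached 2600 CPM in ff and 3189 in GF. The Col6a5-led cluster had 11132 and 16937 CPM, and the Cx3cr1- and Cd36-led clusters followed with 5674 and 8101 CPM and with 5746 and 6853 CPM. At the other end were the Myoc-, Ntrk3-, Cfd-led and adventitial or submucosal clusters, with 75.7 to 272 CPM in ff and 94.3 to 294 CPM in GF.

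Lymphocytes in the same libraries, which should lack Adamdec1, also held its transcripts. Its transcripts were in 40.3% of ff and 11.6% of GF B or plasma cell-like cells. Whether they came from free RNA or from cells captured together was not tested. Of the B or plasma cell-like cells, 20 in ff and 11 in GF belonged to a Jchain-led cluster, at medians of 21738 and 17868 UMIs. Their make-up therefore differed between the libraries. B or plasma cell-like cells held 354 CPM in ff and 64.8 in GF, at median depths of 4219 and 2401 UMIs, and T or innate lymphoid cell-like cells 504 and 52.8 CPM. In ff the low clusters were thus below the lymphocyte level, so expression there cannot be told from such carried-over transcripts. In GF the low clusters stood above the lymphocyte level, but not above all cells that were not picked as mesenchymal. Macrophage, monocyte or dendritic cell-like cells held 504 CPM in GF. Blood endothelium-like cells held 252 CPM, from 4.35% of 23 cells, and lymphatic endothelium-like cells 91.4 CPM. Such values cannot tell background from expression.

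Adamdec1 differed between the libraries within the Foxl1-high-like cells and outside them. GF was higher in 14 of 17 clusters, by 1.5-fold or more in 3. The Wif1-led cluster held 3001 CPM in ff and 5774 in GF (log2 ratio 0.94) and the Nrg1-led cluster 4065 and 5616 CPM (0.47), while the pool ratio was 0.29. The Cfd-led cluster had a log2 ratio of 0.91, from 148 and 279 CPM, and its ff level was under that of the ff lymphocytes.

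Adam19, a membrane protease known to process neuregulins, had the most UMIs of the catalytic ADAMs and was a Foxl1-high-like gene. It stood at 352 CPM in ff and 378 in GF in those cells, against 57.8 and 52.3 CPM in the rest (log2 ratios 2.59 and 2.83). The Wif1-led cluster had 371 and 406 CPM and the Nrg1-led cluster 307 and 273 CPM. No other cluster passed 124 CPM in ff or 135 CPM in GF, both reached by the Col6a5-led cluster. Over all mesenchymal cells Adam19 was lower in GF, 80.0 against 111 CPM (log2 ratio -0.47), in the library with fewer Foxl1-high-like cells, and within the Foxl1-high-like cells the log2 ratio was 0.10.

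With Adamts18, an ADAMTS protease of 4.12 CPM in ff and 7.95 in GF in Foxl1-high-like cells, these made 4 of 56 members that were higher in Foxl1-high-like cells: Mmp10, Adam19, Adamts18 and Mmp13. Of all genes 4.48% were. Adamts18 was in the Nrg1-led cluster (13.2 and 24.2 CPM) rather than the Wif1-led one (0.293 and 3.68 CPM), and was also higher in the Cd36-led cells, at 4.43 and 7.79 CPM. In the other direction 14 of 56 members (25.0%) were lower in Foxl1-high-like cells in both libraries, against 6.02% of all genes. They were Adamts1, Adamts2, Adamts5, Adamts10, Adamts15, Adamts19, Adamtsl2, Adamtsl3, Adamtsl5, Mmp3, Mmp11, Mmp16, Adam23 and Timp3, so 9 of the 14 belong to the ADAMTS and ADAMTS-like genes, which make up 22 of the 56 (39.3%).

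Adam10, the sheddase of Notch receptors and cadherins, and Adam17, the sheddase of TNF and EGF-family ligands, were present in every cluster. Adam10 was at 42.9 CPM in ff and 40.5 in GF, and ran from 30.7 to 58.8 CPM over the ff clusters and from 25.5 to 61.9 CPM over the GF clusters. Adam17 was at 58.8 and 56.1 CPM, and was lowest in the smooth muscle-like cluster and the Foxl1-high-like clusters (21.0 to 31.8 CPM in ff and 31.2 to 41.0 CPM in GF). Where Adam17 was low Adam10 tended to be high: over 17 clusters their Spearman correlation was -0.51 in ff and -0.49 in GF, and that of Adam17 with Adam15 was 0.85 and 0.70. The Ackr2-led adventitial cluster had the highest ff levels of both Adam15 (103 CPM) and Adam17 (112 CPM). Adam9 and Adam15, 2 further catalytic ADAMs, had 58.7 and 54.2 CPM in ff, and 51.3 and 53.4 in GF, and neither met the bound in any population or between the libraries. Iah1 overlaps Adam17 on the opposite strand.

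Adam33 had the largest difference between the libraries. This ADAM, best known from airway mesenchyme, had 837 UMIs in ff (7.77 CPM, interval 7.26 to 8.32) and 62 in GF (0.697 CPM, 0.534 to 0.894). The log2 ratio was -2.37 with 1 CPM added and -3.48 without (interval -3.88 to -3.11). In ff most of it came from the Wif1-led cluster, with 533 UMIs at 39.0 CPM, where GF had 14 UMIs at 2.34 CPM. The Ackr2-led cluster had 66 and 3 UMIs, the Angptl1-led 62 and 1, and the Myoc-led 88 and 28. GF was lower in 15 of the 17 clusters, and the ratio stayed at -2.35 when the GF populations were weighted by their ff shares. Strain and housing state cannot be told apart for this gene or any other.

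Adam30, a gene known mainly from testis, was also lower in GF, at 1.61 against 3.46 CPM (log2 ratio -0.78, from 143 and 373 UMIs), and in 16 of 17 clusters. Adam12, a membrane ADAM also made in a secreted form, had 196 UMIs in ff and 211 in GF, and in ff was concentrated in Foxl1-high-like cells (6.13 against 0.87 CPM) more than in GF (3.44 against 2.27 CPM). Adam8, known from leukocytes, had 124 and 57 UMIs. The ADAMs without protease activity were led by Adam23, a receptor of secreted LGI proteins, at 116 and 115 CPM. Adam23 was highest in the Cxcl13-led reticular-like cells, 310 CPM in ff and 297 in GF, against 101 and 69.7 CPM in the other cells (log2 ratios 1.60 and 2.08), and was the only member higher in that population by the bound, which 0.296% of all genes met. The adventitial or submucosal cells stood at 16.0 and 6.67 CPM. Adam11, Adam22, Adam1a, Adam4 and Adam5 had between 48 and 374 UMIs in each library. Among them Adam22, which like Adam23 binds LGI proteins, was higher in adventitial or submucosal cells, at 2.50 and 2.45 CPM against 0.236 and 0.416 CPM, where Adam23 was low.

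The proteoglycan-cleaving ADAMTS genes, whose products cut versican and aggrecan, were the group with the largest median difference between the libraries. The median log2 ratio of its 7 measured genes was 0.54 in the pool, and all had pool values above 0. By the bound, 3 of 7 were higher in GF and 0 lower, where 4.89% and 5.21% of all genes were: Adamts15 (1.28, 1.58 against 5.27 CPM), Adamts4 (0.76, 270 against 456 CPM) and Adamts8 (0.72, 0.585 against 1.62 CPM from 63 and 144 UMIs). Adamts1, Adamts5, Adamts9 and Adamts20 had ratios of 0.38, 0.54, 0.52 and 0.44. Much of this moved with the share of each population: with GF populations weighted by their ff shares Adamts4 was at 0.42 and Adamts8 at 0.47, both under the bound, and Adamts5 and Adamts9 at 0.34 and 0.19, while Adamts15 stayed at 1.26. In cells thinned to equal depth Adamts8 was at 0.34. Within single clusters the direction was less uniform. Adamts9 was lower in GF in 10 of 17 clusters and Adamts1 in 7, while the other genes of the group were higher in 12 or 13.

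Adamts4 and Adamts1 were highest in the Ntrk3-led cluster. Adamts4 stood there at 659 CPM in ff and 1464 in GF against 258 and 368 CPM in the other cells, and Adamts1 at 827 and 1334 CPM against 398 and 465 CPM. They were the only 2 of 56 members higher in that population, where 1.19% of all genes were. This cluster was 4.27% of ff and 9.29% of GF cells, and its own log2 ratio of GF over ff for Adamts4, 1.15, was above that of the pool. The lowest levels were also shared: the Cx3cr1-led cluster had 71.7 and 67.3 CPM of Adamts1 and 64.0 and 60.2 CPM of Adamts4, and the Ackr4-led cluster had 191 and 97.1 CPM of Adamts1 and 19.6 and 13.9 CPM of Adamts4. Lymphocytes held 33.2 and 48.7 CPM of Adamts4 in ff and 4.29 and 20.7 CPM in GF. Adamts4 in the Ackr4-led cluster thus lay below the lymphocyte levels in ff and between them in GF. For Adamts1 lymphocytes held 45.8 and 88.5 CPM in ff and 9.11 and 23.5 CPM in GF. The Cx3cr1-led level of Adamts1 thus lay between the lymphocyte levels in ff and above them in GF. Over 17 clusters the Spearman correlation of the 2 genes was 0.70 in ff and 0.67 in GF.

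Both clusters also had few transcripts of early-response genes, which are known to be induced quickly by cell handling and other stimuli. A list of 7 (Fos, Fosb, Jun, Junb, Egr1, Atf3 and Ier2), chosen after the data were seen, summed to 23972 CPM in the ff and 22389 CPM in the GF pool. It summed to 5089 and 4838 CPM in the Cx3cr1-led cluster and to 3113 and 2849 CPM in the Ackr4-led cluster. The Spearman correlation of the list with Adamts4 was 0.66 in ff and 0.34 in GF, and with Adamts1 0.38 and 0.25. In the Ntrk3-led cluster, where both genes were highest, the list was below the pool, at 21875 and 16468 CPM. Their part in the Adamts1 and Adamts4 levels was not tested.

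Adamts5, a neighbour of Adamts1 on chromosome 16 (the pair spans chr16:85793827-85901828), had a different pattern. It was an adventitial or submucosal gene, at 494 CPM in ff and 653 in GF in those cells against 73.0 and 93.1 CPM in the rest (log2 ratios 2.74 and 2.80). The Ackr2-led cluster was highest, with 879 and 1006 CPM. Adamts9 was highest in the Nrg1-led cluster in ff (60.2 CPM) and in the Ntrk3-led cluster in GF (135 CPM), so the order of its clusters was not shared. In the Ackr2-led cluster it was at 13.9 CPM in ff and 80.0 in GF.

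Adamts15 and Adamts8, neighbours on opposite strands of chromosome 9 (chr9:30899155-30963838), were both higher in GF. Adamts15 had 170 UMIs in ff and 469 in GF, was higher in GF in 13 of 17 clusters, and rested most on the Cxcl13-led (15 and 129 UMIs), Col6a5-led (24 and 70) and Cck-led (32 and 68) clusters. These counts are not scaled to cluster size. The Cxcl13-led cluster held 7391900 UMIs of all genes in ff and 17489001 in GF, and the Cck-led cluster 16215272 and 6507669. Adamts8 was highest in GF in the Cfd-led cluster at 4.41 CPM from 14 UMIs. A gene model overlaps Adamts8 on the opposite strand.

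**Figure D3:**
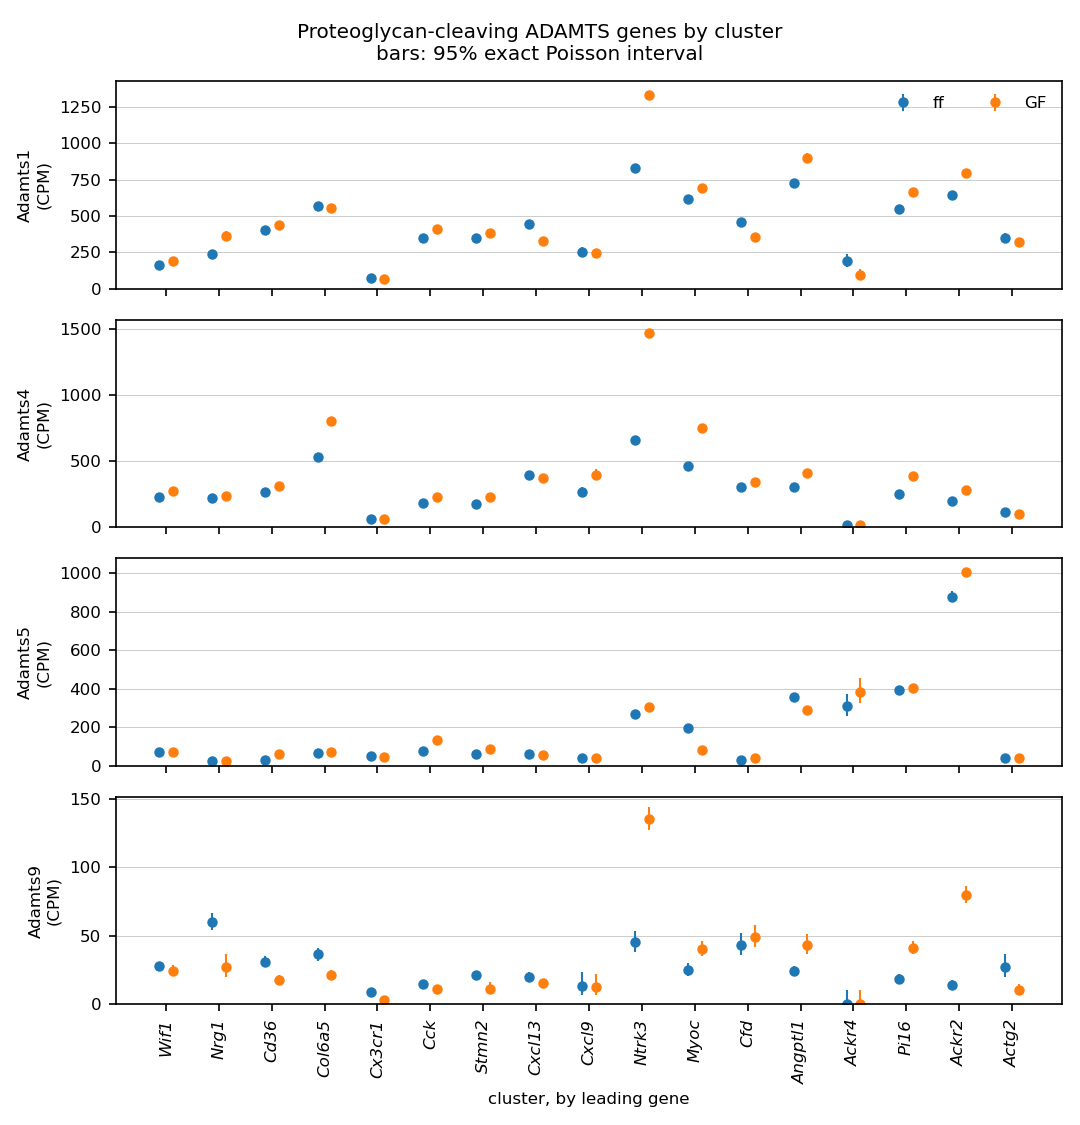
Levels (CPM, vertical axes from 0) of Adamts1, Adamts4, Adamts5 and Adamts9 in 17 mesenchymal clusters, ff in blue and GF in orange, with 95% exact Poisson intervals as bars. Adamts1 and Adamts4 peak in the Ntrk3-led cluster (827 and 659 CPM in ff, 1334 and 1464 in GF) and are low in the Cx3cr1- and Ackr4-led clusters, and Adamts5 peaks in the Ackr2-led cluster.

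The procollagen-cleaving ADAMTS genes, which remove the amino-terminal propeptides of fibrillar collagens, were led by Adamts2 at 175 CPM in ff and 202 in GF. Adamts2 was low in the Foxl1-high-like cells, 33.7 and 31.7 CPM against 206 and 218 CPM in the rest. Lymphocytes held 31.6 and 35.4 CPM of it in ff, from 20 and 8 UMIs, and 4.82 and 7.46 CPM in GF. The Foxl1-high-like level thus lay between the lymphocyte levels in ff and above them in GF. Adamts2 was highest in the Stmn2-led cluster at 281 and 312 CPM. Adamts3, which also processes the lymphatic growth factor Vegfc, was highest where Adamts2 was lowest, in the Nrg1-led cluster, at 18.4 and 11.5 CPM. Adamts3 was at 5.23 CPM in ff and 3.1 in GF (log2 ratio -0.60), just past the bound. It was at -0.37 with weighted populations, -0.55 in thinned cells and -0.58 without the Cx3cr1-led cluster. Adamts14 stood at 7.35 and 10.4 CPM.

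Of the other ADAMTS genes, Adamts6, known for its action on fibrillin microfibrils, was higher in smooth muscle-like cells, at 19.8 CPM in ff and 29.8 in GF against 3.50 and 3.44 CPM in the other cells. With Mmp17 it made 2 of 56 members higher there, against 4.79% of all genes. Lower in smooth muscle-like cells were 13 of 56 members (23.2%), Mmp2, Adamts2, Adamts4, Adamts5 and Timp1 among them, against 6.35% of all genes. Adamts10 was at 52.3 and 56.3 CPM, Adamts19 at 23.3 and 31.0 CPM, Adamts12 at 19.9 and 25.1 CPM, and Adamts7 at 5.71 and 8.26 CPM in ff and GF. Adamts19 was low in the Foxl1-high-like and Cd36-led cells, at 0.566 and 1.59 CPM and at 1.44 and 4.93 CPM. Adamts17 and Adamts20 had 352 and 18 UMIs in ff and 205 and 52 in GF.

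The ADAMTS-like proteins lack a protease domain and are known as partners of fibrillin and other matrix fibres. Adamtsl2 was concentrated in the Col6a5-led cluster, 42.3 CPM in ff and 60.8 in GF against 3.69 and 6.85 CPM in the rest (log2 ratios 3.21 and 2.98), the cluster in which Adamdec1 was highest. Mmp16 and Adamts12 were also higher there, which made 4 of 56 members, against 1.34% of all genes. In the pool Adamtsl2 was at 5.94 and 10.8 CPM, a log2 ratio of 0.77 that fell under the bound, to 0.45, with weighted populations.

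Adamtsl3 was a gene of the adventitial or submucosal, Cfd-, Myoc- and Ntrk3-led cells and differed between the libraries in all of them. The adventitial or submucosal cells had 127 CPM in ff and 61.9 in GF, the Cfd-led cells 180 and 96.0 CPM, the Myoc-led cells 130 and 66.3 CPM and the Ntrk3-led cells 83.0 and 32.6 CPM. In the pool it was at 40.5 and 24.7 CPM, a log2 ratio of -0.70. GF was below ff in 17 of 17 clusters, by 1.5-fold or more in 14, and the ratio was -1.04 with weighted populations and -0.58 under a stricter cell filter. Adamtsl1, higher in adventitial or submucosal cells at 116 and 92.3 CPM, shares its strand with the overlapping gene Sh3gl2. Adamtsl4 and Adamtsl5 stood at 82.8 and 48.2 CPM in ff and 64.6 and 63.3 CPM in GF. In all, 5 of 56 members were higher in adventitial or submucosal cells (Adamts5, Adamtsl3, Adamtsl1, Adam22 and Timp1), against 1.92% of all genes.

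Timp2 and Timp3 were the most abundant inhibitors. Timp2, which blocks MMPs and also takes part in pro-Mmp2 activation, stood at 1238 CPM in ff and 1264 in GF, and no cluster had less than 653 CPM in ff or 563 in GF. The Ackr2-led cluster was highest, 2195 and 1991 CPM, and the Wif1-led lowest. No population met the bound for Timp2 in either direction. Its Spearman correlation with Mmp2 over 17 clusters was -0.19 and -0.01.

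Timp3, which binds to matrix and blocks ADAM17 and the aggrecan-cleaving ADAMTS enzymes as well as MMPs, varied far more. It stood at 1019 and 802 CPM in the pool. The Stmn2-led cluster had 2074 CPM in ff and 1764 in GF and the Ackr2-led cluster 1941 and 2415 CPM, while the Nrg1-led cluster had 152 and 154 CPM and the Cfd-led 243 and 149 CPM. Timp3 was the 1 member of 56 higher in Stmn2-led cells, where 0.451% of all genes were. The Nrg1-led cluster, with the highest Mmp2 and most of the mesenchymal Mmp13 UMIs, had the lowest Timp3 level in ff and, after the Cfd-led cluster, in GF. Lymphocytes held 238 and 217 CPM of Timp3 in ff and 11.3 and 58.0 CPM in GF. Cells like B or plasma cells are given first, then those like T or innate lymphoid cells. In ff the Nrg1-led level was thus below the lymphocyte levels and the Cfd-led level close to them. In GF both clusters stood above the lymphocytes. The ff lymphocytes were 67 and 39 cells, with Timp3 in 25.4% and 23.1% of them. Such values cannot tell background from expression. GF was below ff in 14 of 17 clusters, and the pool log2 ratio was -0.35.

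Timp1, an inducible inhibitor of most secreted MMPs, stood at 89.4 and 126 CPM. It was higher in adventitial or submucosal cells, at 171 and 243 CPM against 72.2 and 94.2 CPM, and in GF its highest level was 352 CPM in the Ntrk3-led cluster, which had 152 CPM in ff. The pool log2 ratio was 0.49, and 0.19 with weighted populations. Within clusters Timp1 was lower in GF in 10 of 17 and higher in 7, with a median log2 ratio of -0.16. Timp4 had 60 UMIs in ff and 48 in GF. Timp1, Timp3 and Timp4 each overlap a synapsin gene on the opposite strand (Syn1, Syn3 and Syn2), and Timp2 overlaps Cep295nl on its own strand, so their counts depend on how such reads were assigned.

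**Figure D4:**
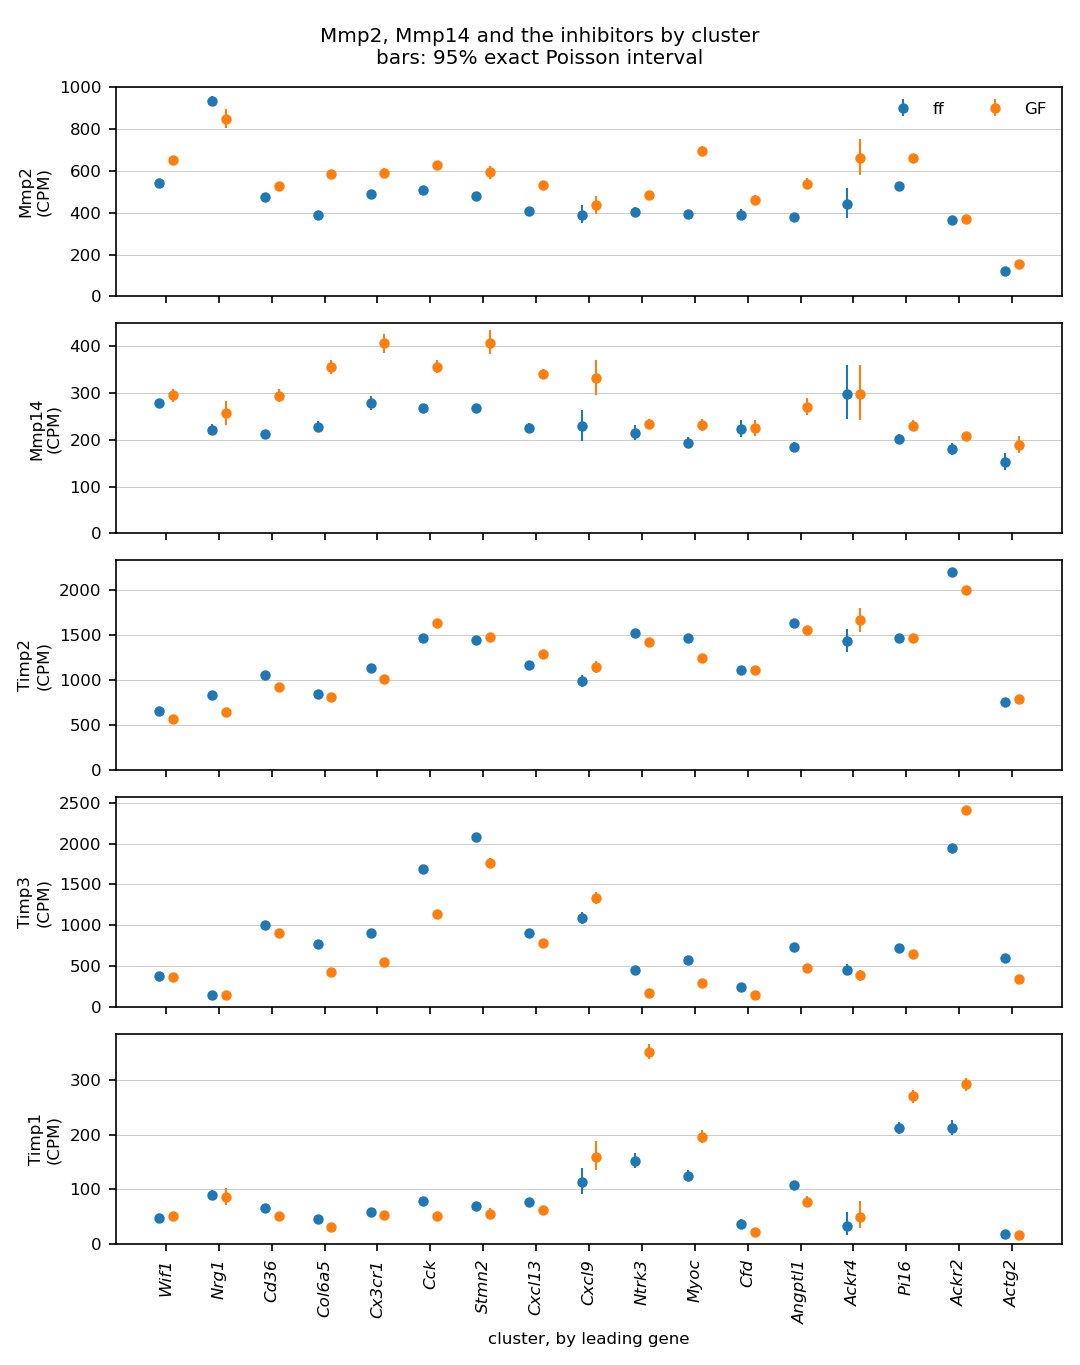
Levels (CPM, vertical axes from 0) of Mmp2, Mmp14, Timp2, Timp3 and Timp1 in 17 mesenchymal clusters, ff in blue and GF in orange, with 95% exact Poisson intervals as bars. Mmp14 and Timp2 are present in every cluster (at least 153 and 653 CPM in ff), and in the Nrg1-led cluster Mmp2 is highest (936 and 851 CPM) and Timp3 is low (152 and 154 CPM).

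Counts in the remaining populations were read against all genes in the same way. Members higher by the 2-fold bound numbered 4 in Cx3cr1-led cells (Adamtsl2, Adamdec1, Adam23 and Mmp11), where 1.1% of all genes were, and 2 in lamina propria-like cells (Adamts18 and Adamdec1), against 1.06%. They numbered 3 in Myoc-led cells (Mmp3, Adamtsl3 and Adam33), against 1.62%, and 3 in Cfd-led cells (Adamtsl3, Mmp16 and Adamts8), against 3.49%. Cck-led cells had 0 such members and interferon-activated cells 0, where 0.491% and 1.55% of all genes were higher.

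Members lower by the bound were found in every population. They numbered 9 of 56 in adventitial or submucosal cells, where 5.84% of all genes were lower, 9 in Ntrk3-led cells (5.62%) and 9 in Cfd-led cells (4.47%). Cck-led cells, which had no higher member, had 7 lower (3.32%): Mmp3, Adamdec1, Adam19, Mmp10, Adamtsl2, Adamtsl3 and Adamts18. There were 6 in lamina propria-like cells (3.18%), 6 in Cx3cr1-led cells (3.41%), 5 in Col6a5-led cells (2.6%) and 5 in Myoc-led cells (3.84%). Reticular-like and Stmn2-led cells had 4 each, against 2.52% and 2.99%, and interferon-activated cells had 3, against 2.82%. Adamdec1 and Adam23 were lower together in the adventitial or submucosal, Ntrk3-, Myoc- and Cfd-led cells. Adam23 stood there at 16.0, 17.7, 9.03 and 25.5 CPM in ff. Lymphocytes held 23.7 and 31.0 CPM of Adam23 in ff, from 15 and 7 UMIs, and 0.536 and 8.61 CPM in GF. No ff level of these cells exceeded the higher ff lymphocyte value, which cannot tell background from expression.

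Between the libraries, the 5 members higher in GF were Adamts15, Mmp16, Adamtsl2, Adamts4 and Adamts8, and the 5 lower were Adam33, Mmp10, Adam30, Adamtsl3 and Adamts3. Mmp10 was at 4.41 CPM in ff and 1.46 in GF, a log2 ratio of -1.14. Within Foxl1-high-like cells, which were fewer in GF, its ratio was -0.80, and with weighted populations it was -0.65. Of the 10, Adamts4, Adamts8, Adamtsl2 and Adamts3 came under the bound when population shares were made equal. The other 6 kept their side of it.

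**Figure D5:**
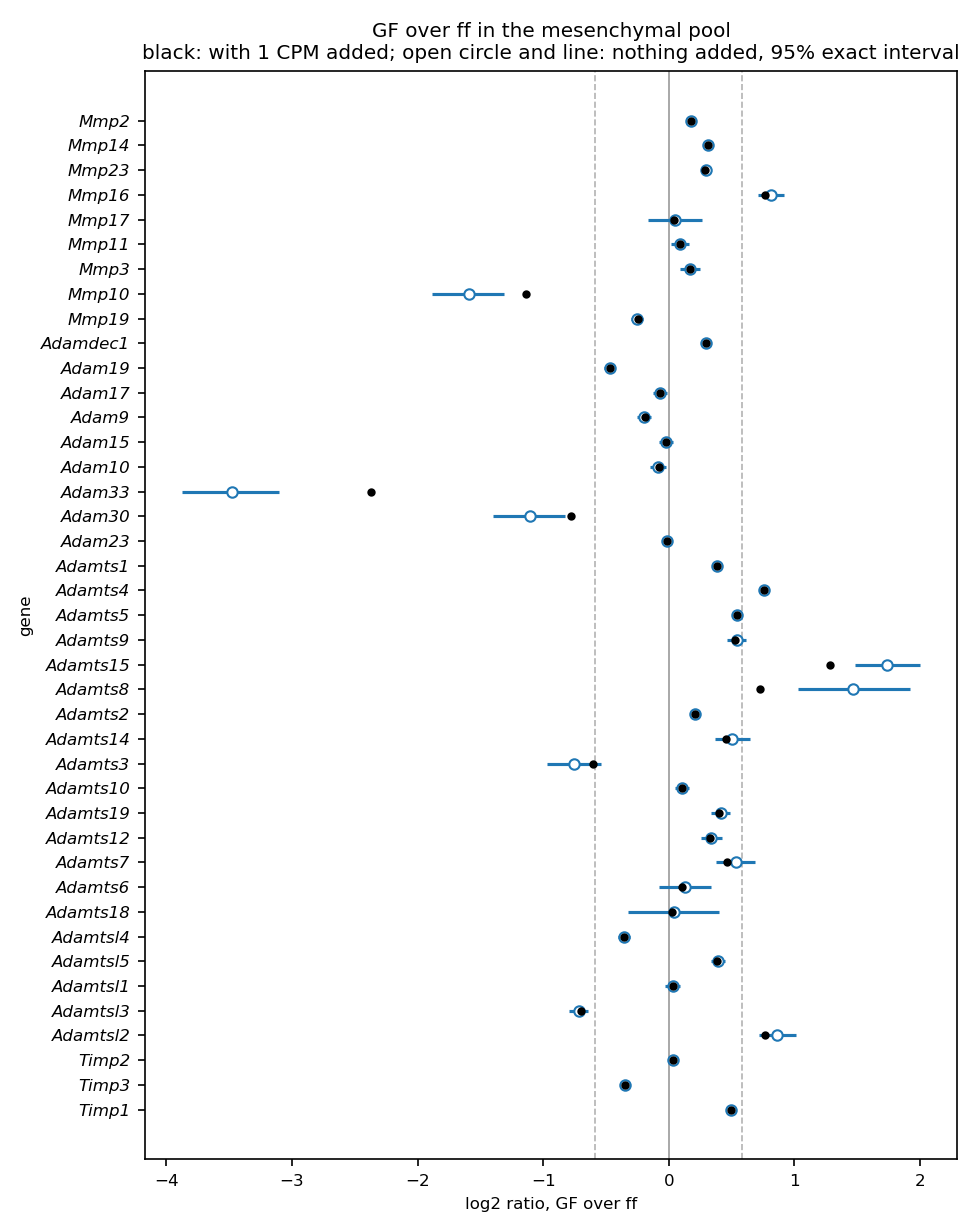
Log2 ratio of GF over ff in all mesenchymal cells for the 41 genes named by rule (rows, ordered by role). Black points are ratios with 1 CPM added, open circles with lines are ratios without it and their 95% exact intervals, and dashed lines mark the 1.5-fold bound. Most genes lie between the dashed lines, Adam33 lies farthest left (-2.37) and Adamts15 farthest right (1.28).

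Genes that activate, inhibit or serve as substrates of these proteases were taken from lists, and their counts stand beside 4.89% of all genes higher and 5.21% lower. Their ratios are for all mesenchymal cells without weighting by population shares, so differences in shares enter them. Plau, the urokinase that converts plasminogen to the MMP-activating plasmin, was the 1 of 6 measured plasminogen activation genes (of 8 listed) past the bound, at 29.5 CPM in ff and 95.9 in GF (log2 ratio 1.67). Its highest level in both libraries was in the Foxl1-high-like cells, 115 and 507 CPM, the cells with the highest Mmp10. Pcsk6, a proprotein convertase of the kind that activates membrane-type MMPs and ADAMs, was also highest there, at 231 and 456 CPM. In its list of activators and inhibitors outside the TIMPs, 0 of 10 were higher and 2 lower: Spock3 (15.5 against 5.95 CPM, -1.25) and Rhbdf2, an escort of ADAM17 (7.92 against 4.44 CPM, -0.71). Spock3 was highest in the Stmn2-led cells, at 70.6 CPM in ff and 48.1 in GF. Those cells were 9.26% of ff and 2.48% of GF mesenchymal cells.

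Among ADAM10 escorts and substrates 1 of 10 genes was higher and 1 lower. The first was the tetraspanin Tspan33, from 46 and 127 UMIs (log2 ratio 0.77), and the other Cd44 at 188 CPM in ff and 95.7 in GF (-0.96). Cd44 was highest in ff in the Foxl1-high-like cells (443 CPM), which were fewer in GF. In GF no population exceeded the 206 CPM of the adventitial or submucosal cells, so Cd44 was also lower within the Foxl1-high-like cells. None of the 9 measured ADAM17 substrates passed the bound. Hbegf had the ratio farthest from 0, -0.50. Of the proteoglycan list, versican (Vcan), a main substrate of Adamts1, Adamts4 and Adamts5, was lower in GF, 291 against 476 CPM (-0.71), where those 3 genes had ratios above 0. Vcan was highest in ff in the Stmn2-led cells (853 CPM), which were also fewer in GF. In GF no population exceeded the 536 CPM of the lamina propria fibroblast-like cells, so Vcan was also lower within the Stmn2-led cells. The link protein gene Hapln3 was higher, 3.99 against 1.16 CPM (1.21). Of 11 fibrillin microfibril genes 2 were higher, Mfap5 (498 and 837 CPM, 0.75) and Ltbp2 (1.04 and 2.08 CPM, 0.59), and 1 lower, Fbn2 (11.3 and 6.09 CPM, -0.79). Pcolce2, an enhancer of procollagen processing, was the 1 of 5 tolloid pathway genes past the bound, at 221 and 419 CPM (0.92), and none of the 8 cathepsins and cystatins passed it. The medians of these lists lay between -0.19 and 0.32, beside 0.02 for all genes.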

How the data were processed

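Per the submitters' processing notes, the authors processed the reads with Cell Ranger 6.0.0 on the mm10 build, and the deposited tables hold raw, unscaled UMI counts of each Ensembl gene in each barcode. The lowest barcode total is 500 UMIs in each table, so shallower barcodes had been left out. The annotation release, and whether strand was used, are not stated. Symbols and positions come from GENCODE vM21 (GRCm38, the assembly of mm10), with a symbol for 32158 genes, and promoter windows from RefSeq (GRCm38.p6). Of the 57 members, 20 overlap another counted gene.

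The ff and GF tables hold 13704 and 16388 barcodes. Cells with 500 genes, 1000 UMIs and at most 10% mitochondrial UMIs were kept, and Scrublet (scanpy 1.11.5) removed 538 ff (4.24%) and 767 GF (5.09%) doublets, leaving 12164 and 14299 cells. Leiden clustering (leidenalg 0.10.2, resolution 1, 30 components, 15 neighbours) used 1960 of 2000 variable genes, without the members and pathway lists. A name needed 3 listed markers at 2-fold, 1 of them among the top 10 genes; these thresholds were set after seeing the data. The mesenchymal gate took cells with UMIs of at least 3 of Col1a1, Col1a2, Col3a1, Dcn, Col6a1 and Pdgfra, and at most 1 UMI over 10 genes of other lineages.

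UMIs were summed per library and population and scaled to 1000000. Ratios have 1 CPM added, so ratios of low genes are understated, and their intervals (95%, exact conditional binomial) have nothing added. UMIs of single cells are not replicates, so no test was made. Genes were measured with 50 UMIs or more in the mesenchymal cells (14858 genes). Named members are those with 1000 UMIs or more, those with 200 or more that differed 1.5-fold between libraries, and up to 3 per population with the highest ratios. Pathway genes are up to 3 per list with 200 UMIs or more, and Pcsk6, Hbegf and Tspan33, like the members outside the rule, were described after their values were seen. The members and lists were chosen with earlier results of these data known. Alternatives to the scaling, UMI minimum, pseudocount, cell filter, doublets, gate, population weights, depth and resolution are given in the closing section.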

Additional observations from a re-analysis of the deposited data

How the results depend on the processing

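No paired analysis was possible because each group is 1 library with no replicate numbers, and no library could be left out. Against 5 members higher and 5 lower in GF, a pseudocount of 0.1 CPM gave 9 and 9 (8.36% and 9.46% of all genes), and a stricter cell filter (1000 genes, 2000 UMIs, 5% mitochondrial UMIs) gave 8 higher and 4 lower (4.83% and 6.17%). Weighting the GF populations by their ff shares gave 2 higher (Adamts15 and Mmp16) and 5 lower, with Mmp25 in place of Adamts3 (4.92% and 4.93%). Under the stricter filter Adamts5 (0.72), Adamts9 (0.71) and Timp1 (0.66) passed the 1.5-fold bound. The other alternatives, which were median-of-ratios scaling, UMI minima of 200 and 1, kept doublets, a pool defined by clusters and thinning to 2000 UMIs, gave 5 or 6 higher and 4 or 5 lower, and so did 2 added after seeing the data: leaving out gated cells of clusters outside the mesenchyme, or the Cx3cr1-led cluster. Median-of-ratios scaling shifted log2 ratios by -0.03 before the 1 CPM was added, and by less for low genes. The 23 members higher in a population (18.9% of all genes) became 40 with a 1.5-fold bound (39.9%), which held all 23, and 30 with a pseudocount of 0.1 CPM (26.8%). The other alternatives gave 19 to 24, beside 16.0% to 20.2% of all genes. At Leiden resolution 0.5 there were 8 populations and 19 such members, 18 of them shared. Members under 200 UMIs have wide counting intervals and few or 0 UMIs in many clusters, where a difference was not detectable at this depth.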

Other observations

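Cells outside the mesenchymal gate that passed the sort also carried members of these families. The macrophage, monocyte or dendritic cell-like cluster was mixed, as it also matched the pericyte marker list. Of its 88 ff and 104 GF cells, 39 in each library passed the gate and stayed in the mesenchymal pool, in no population. Its cells outside the gate, 49 in ff and 65 in GF, held the gelatinase Mmp9 at 117 CPM (72 UMIs) in ff and 42.0 (19 UMIs) in GF, where the mesenchymal cells were at 0.149 and 0.259 CPM. The same cells held Adam8 at 96.2 and 155 CPM, against 1.15 and 0.641 CPM in the mesenchyme, and Adam19 at 129 and 155 CPM, against 111 and 80.0 CPM. Mmp13 was at 101 CPM (62 UMIs) in ff and 17.7 (8 UMIs) in GF, above the 9.55 and 7.64 CPM of the Nrg1-led cluster. Mmp25 was at 14.7 and 55.2 CPM from 9 and 25 UMIs.

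Endothelial cells were few but had their own pattern. Lymphatic endothelium-like cells, 40 in ff and 53 in GF, had 4623 and 4213 CPM of Timp3, above every mesenchymal cluster, and 1190 and 1144 CPM of Timp2. Blood endothelium-like cells, 30 and 23, had 77.1 and 64.8 CPM of Mmp15, from 18 and 9 UMIs, against 0.279 and 0.652 CPM in the mesenchyme. They also had 270 and 173 CPM of Adam15, against 54.2 and 53.4 CPM, and 763 and 590 CPM of Adamts1. These values come from 1 library per group and were not tested.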
